A study of Mus musculus with 2 samples.

Results

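The AP-1 and immediate-early transcription factors studied here were the 10 genes Fos, Fosb, Fosl1, Fosl2, Jun, Junb, Jund, Atf3, Egr1 and Myc, taken by symbol from the 23183 gene symbols in the RNA sequencing data. They occupied 11 of the 33299 transcript rows, since Myc had 2 rows and every other gene had 1. The rows of a symbol were summed as normalized FPKM, fragments scaled for transcript length and library depth. RNA came from primary mouse cavernous endothelial cells (MCECs), grown from the corpus cavernosum of the penis of male C57BL/6J mice, 8 weeks old by the methods, in M199 medium with 20% serum, heparin and VEGF. For the glucose model the cells were first deprived of serum for 24 hours, and whether serum was then given back is not stated in the sources used here. Both cultures were kept in high glucose (HG, 30 mM). How many animals or dishes the RNA of each condition came from is not given in the sources used here. The HG+HBS culture received the vehicle, HEPES-buffered saline, and the HG+PC-NVs culture received 1 µg/mL of PC-NVs, particles resembling vesicles that were pressed out of cultured pericytes of the same tissue. By the methods, RNA was taken 72 hours into high glucose and 24 hours after PC-NVs were added, whereas the labels give 5 days of glucose. Each condition was 1 library, so no difference below could be set against the spread between cultures. The values describe these 2 libraries.

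AP-1 is a dimer of basic leucine zipper proteins, usually a Jun protein with a Fos or ATF protein, which binds short DNA elements and turns on genes of growth, matrix remodelling and inflammation. Jun proteins can pair with each other, while Fos proteins need a partner from another family. Fos, Egr1, Atf3 and Junb are immediate-early genes, transcribed within minutes of a growth factor, cytokine or stress signal without new protein synthesis, and their mRNAs are short-lived. Fosl1 and Fosl2 encode Fos-related proteins that stay in the cell longer after a stimulus. In blood vessels these factors are known for their part in the response of endothelial and mural cells to injury and cytokines.

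The labelled cell type was checked first. Of 17 endothelial markers, 11 were below 1 FPKM in both libraries. Pecam1 stood at 1.05 and 0.938 FPKM, and Vwf at 0.158 and 0.128 FPKM, in HG+HBS then HG+PC-NVs. Cdh5, which encodes VE-cadherin, stood at 5.05 and 5.73 FPKM. Eng was the highest of the 17 in both libraries, and only 2, Eng and Esam, were at 10 FPKM or more. Esam stood at 17.4 and 11.7 FPKM, and Egfl7 at 9.48 and 8.57 FPKM. All 10 fibroblast markers were at 10 FPKM or more in both libraries, with a summed level of 2270 and 2534 FPKM, against 66.2 and 51.3 FPKM for the endothelial markers. Of the 10 fibroblast markers, 9 were lower in HG+PC-NVs, and the 10 had a median log2 ratio of -0.33. The 2 lower past 1.5-fold were Fap (log2 ratio -0.71) and Col1a2 (-0.65). Only Dcn was higher, at 623 and 1283 FPKM (1.04). Pericyte and smooth muscle markers summed to 148 and 109.7 FPKM, but did not move together. Of the 11 tested, 2 were higher in HG+PC-NVs past 1.5-fold, Rgs5 (1.69 and 7.23 FPKM, log2 ratio 1.61) and Kcnj8 (7.98 and 20.4 FPKM, 1.25). The 5 lower past it were Acta2 (27.6 and 8.02 FPKM, -1.67), Tagln (17.3 and 7.34 FPKM, -1.13), Anpep (-0.91), Des (-0.86) and Cspg4 (-0.70). Des, among the 5 lower, reached 1 FPKM only in HG+HBS. Myeloid markers summed to 390 and 634 FPKM, with 4 of 12 higher and 1 lower past 1.5-fold. The higher ones were Cd14 (36.6 and 252 FPKM, log2 ratio 2.75), Adgre1 (7.44 and 42.5 FPKM, 2.37), Aif1 (1.82) and Fcer1g (1.09), and the lower one Mrc1 (-1.07). At any size, 7 myeloid markers were higher and 5 lower, Lyz2 (212 and 193 FPKM) and Cd68 (36.2 and 26.3 FPKM) among the lower. For scale, of all 12109 genes at 1 FPKM or more in at least one library, 5.67% were higher and 3.82% lower past 1.5-fold. The part of any of these cell types in the values below was not tested. In bulk RNA, fewer cells of a type and less RNA per cell cannot be told apart.

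The sequences before the RefSeq starts of Fos, Junb and Jun are shown because Fos had the largest ratio between the libraries, and Junb and Jun changed places as the most abundant Jun gene. RefSeq (GRCm38.p6) held upstream sequence for 7 of the 10 genes, and Fosl1, Egr1 and Myc were not matched. For Fos and Jun the RefSeq start is also that of the GENCODE M21 transcript whose length was used for the values, and for Junb the transcript starts 30 bases further along. The 250 bases before the RefSeq start are given 5′ to 3′ on the strand of the gene. Capitals mark the letters of a match, on either strand, to the CRE core TGACGT, the jun1 site TGACATCA, the TATA box TATAAA or the NF-kB site. They lie at chr12:85473640-85473889 (forward strand) for Fos, chr8:84978749-84978998 (reverse) for Junb and chr4:95052223-95052472 (reverse) for Jun.
Fos: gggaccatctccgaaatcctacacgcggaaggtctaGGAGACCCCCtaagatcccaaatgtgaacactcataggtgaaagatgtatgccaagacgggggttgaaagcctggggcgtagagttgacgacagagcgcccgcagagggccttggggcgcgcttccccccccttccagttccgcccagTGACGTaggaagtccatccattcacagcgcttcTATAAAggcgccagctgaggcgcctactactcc
Junb: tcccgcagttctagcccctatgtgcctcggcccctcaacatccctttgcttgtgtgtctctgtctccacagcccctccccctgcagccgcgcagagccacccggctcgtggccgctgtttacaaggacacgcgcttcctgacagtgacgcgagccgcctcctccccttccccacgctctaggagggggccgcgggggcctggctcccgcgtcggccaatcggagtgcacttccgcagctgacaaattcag
Jun: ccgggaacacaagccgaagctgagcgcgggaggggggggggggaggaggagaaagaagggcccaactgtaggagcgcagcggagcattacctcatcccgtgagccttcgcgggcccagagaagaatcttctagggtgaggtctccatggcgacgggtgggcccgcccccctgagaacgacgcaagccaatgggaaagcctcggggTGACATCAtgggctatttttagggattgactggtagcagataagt

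The Fos sequence held a CRE core from 66 to 61 bases before the start, a TATA box from 33 to 28 bases before it, and an NF-kB match from 214 to 205 bases before it. Cyclic AMP response elements bind CREB and ATF proteins, which is how cyclic AMP and calcium signals are known to reach Fos. The RefSeq start of Fosl2 lies 671 bases inside the GENCODE transcript, and all 250 bases before it are in an exon of that transcript. That window held an EGR site (GCGNGGGCG) from 79 to 71 bases before the RefSeq start and a pair of NF-kB matches that overlap each other between 182 and 172 bases before it. Jun held the jun1 site, the element through which AP-1 is known to act on Jun itself, from 45 to 38 bases before the start. The jun1 site was added to the motifs after the sequences had been seen, so its match in Jun is not a finding of the search. Junb held none of the motifs searched in this window. Of the other genes, Fosb held an NF-kB match and an EGR site, and Atf3 a CRE core from 8 to 3 bases before the RefSeq start, which is 6 bases (Fosb) or 7 bases (Atf3) inside the transcript used. Jund had no match, but its RefSeq start lies 1210 bases before that of the transcript used, so the sequence next to the latter was not searched. Over all 32851 promoter windows of this length, 6.47% held a CRE core, 2.93% a jun1 site, 4.70% an EGR site, 12.4% a TATA box and 7.25% an NF-kB match. The GC box GGGCGG, which overlaps the EGR sites here, was in 32.7% of windows and in those of Fos, Fosb, Fosl2, Jun and Atf3. The AP-1 site TGACTCA (4.46% of windows), the full CRE TGACGTCA (1.55%), the CArG box (1.47%), the E-box CACGTG (6.02%) and the STAT site TTCNNNGAA (7.02%) were in none of the 7 windows. Sequence further than 250 bases before the RefSeq start was not searched, so the absence of a motif holds for these windows only. A match is a description of letters, and binding was not measured.

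**Figure D1:**
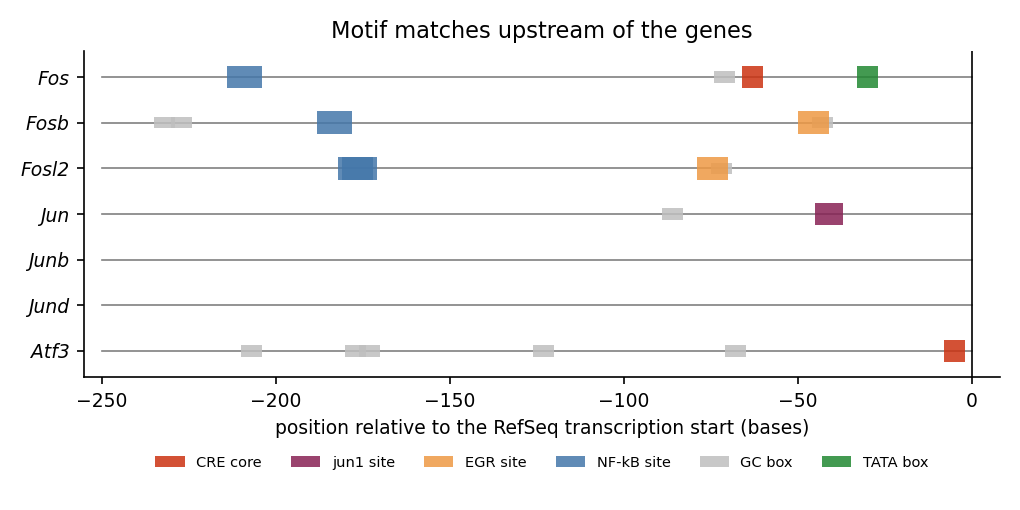
Positions of motif matches in the 250 bases before the RefSeq start of 7 genes; the horizontal axis is the position in bases relative to the start, at 0. NF-kB matches lie between 214 and 172 bases before the RefSeq starts of Fos, Fosb and Fosl2, and the lines of Junb and Jund carry no match; for Fosl2 and Jund that start is 671 and 1210 bases from the start of the transcript used.

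As a group the 10 genes were expressed, and part of them was higher after PC-NVs. Every one was at 1 FPKM or more in both libraries, so a filter at 1 FPKM removed none, although Fosb was close to it. Of the 10, 7 were higher and 3 lower in HG+PC-NVs, with a median log2 ratio of 0.26 on the log2(FPKM + 1) scale, against -0.01 over the 12109 genes tested. Fos, Fosl1 and Junb were higher by more than 1.5-fold, which is 3 of 10, where 5.67% of all genes tested were past that size in the same direction. No member was lower by more than 1.5-fold, where 3.82% of all genes were. Past 2-fold, 1 member was higher (Fos) and 0 were lower, where 2.52% and 0.867% of all genes were. Fos stood just past that size, at 2.04-fold, and dropped just under it with upper-quartile scaling. These counts have no replicate check.

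**Figure D2:**
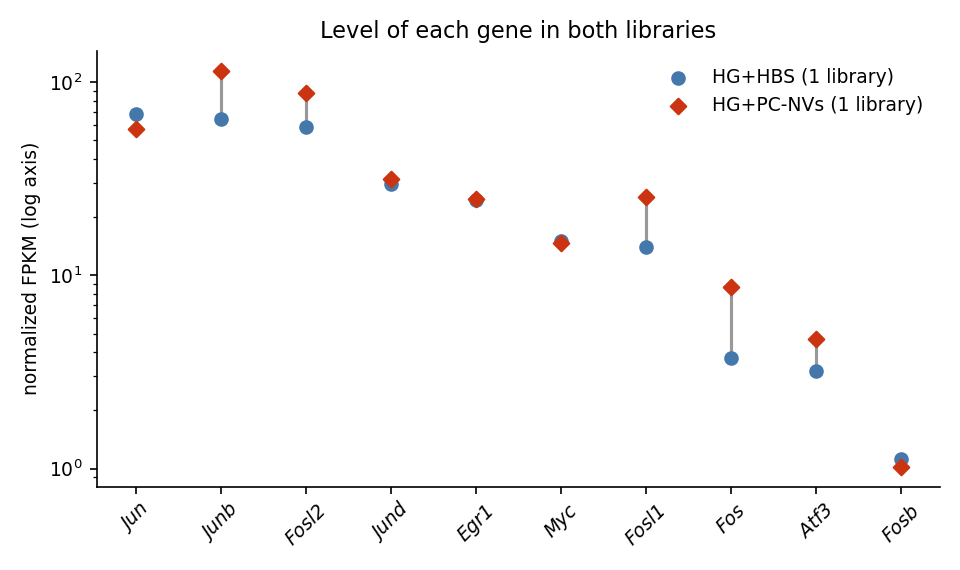
Normalized FPKM (log axis) of each gene in the HG+HBS library (circles) and the HG+PC-NVs library (diamonds), 1 library each, ordered by level in HG+HBS. Junb, Fosl2, Fosl1, Fos and Atf3 have the diamond visibly above the circle, and Jun has it below.

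The precision of each ratio was taken from the number of fragments behind it. The files hold no counts, but low FPKM values multiplied by transcript length fall on whole multiples of a single value, worth 1 fragment. By this measure HG+HBS held about 13300000 fragments, HG+PC-NVs about 11600000, and the 10 genes at about 45 to 6618 fragments each. The intervals below are 95% Wilson intervals of the FPKM ratio, HG+PC-NVs over HG+HBS. They cover counting error only, rest on the transcript length in GENCODE M21, and say nothing of the spread between cultures.

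Among the Fos genes, Fosl2 had by far the highest level, at 58.4 FPKM in HG+HBS against 87.4 FPKM in HG+PC-NVs. Fosl2 encodes FRA2, a Fos-related protein without the strong activation domain of Fos. Its level was 1.496 times as high after PC-NVs (95% interval for counting error 1.44 to 1.55), and its log2 ratio of 0.57 lay just inside the 1.5-fold limit of 0.58. With about 5095 and 6618 fragments it was the most precisely measured of the 10. The gene spans chromosome 5 from 32135801 to 32157842 of GRCm38, on the forward strand, with 4 exons in the coding transcript used.

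Fosl1, which encodes FRA1, stood at 14.0 FPKM in HG+HBS against 25.4 FPKM in HG+PC-NVs. The FPKM ratio was 1.81 (1.58 to 2.07) and the log2 ratio 0.81. Fosl1 passed Myc and Egr1 in the order of levels, from place 7 to place 5 of 10. It lies on chromosome 19 from 5447547 to 5455946, and 2767 bases of that span, introns included, overlap Ccdc85b on the opposite strand. Ccdc85b had a log2 ratio of 0.33, and whether the authors' counting used strand is not given in the sources used here.

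Fos itself, the founding member of the family and the one with the shortest-lived mRNA and protein, was low in both libraries. It stood at 3.74 FPKM in HG+HBS against 8.66 FPKM in HG+PC-NVs. Its FPKM ratio of 2.32 (1.84 to 2.93), from about 105 and 211 fragments, was the largest of the 10, and its log2 ratio of 1.03 was above that of 97.7% of the genes tested. Even so, Fosl2 exceeded Fos by 15.6 times in HG+HBS against 10.1 times in HG+PC-NVs in FPKM. Fos lies on chromosome 12 from 85473890 to 85477273.

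Fosb, a close relative of Fos that is also induced early, was the lowest of the 10, at 1.12 FPKM in HG+HBS against 1.02 FPKM in HG+PC-NVs. With about 57 and 45 fragments, its FPKM ratio of 0.911 had an interval from 0.617 to 1.34, so a difference in either direction of this size was not detectable at this depth. Thus 3 Fos genes were higher in HG+PC-NVs and Fosb showed no detectable difference.

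**Figure D3:**
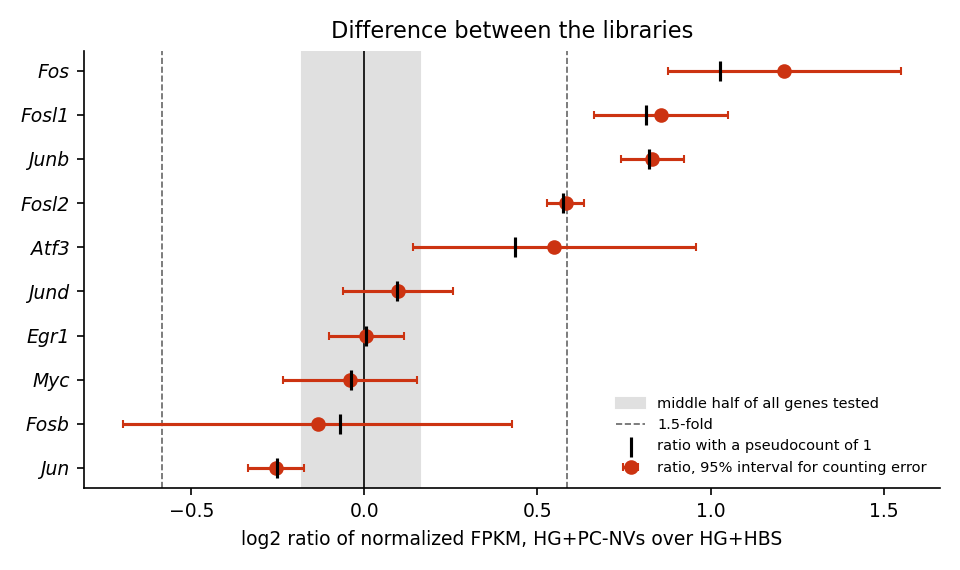
Log2 ratio of normalized FPKM, HG+PC-NVs over HG+HBS, for each gene, with the 95% interval for counting error (circles and bars), the ratio with a pseudocount of 1 (ticks), 1.5-fold (dashed lines) and the range between the quartiles of all genes tested (grey band, -0.18 to 0.16). The bars of Fos, Fosl1 and Junb lie wholly above 1.5-fold, and Jun is the only gene whose whole bar lies below 0.

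The Jun genes differed among themselves more than in their sum. Junb stood at 64.6 FPKM in HG+HBS against 114.9 FPKM in HG+PC-NVs, an FPKM ratio of 1.78 (1.67 to 1.90) and a log2 ratio of 0.82. JunB pairs with Fos proteins like Jun but activates less strongly and can hold back Jun. Jun went the other way, from 68.4 FPKM in HG+HBS to 57.3 FPKM in HG+PC-NVs, a ratio of 0.837 (0.792 to 0.886). Its log2 ratio of -0.25 was within 1.5-fold but outside counting error. Jund, the Jun gene that is expressed steadily in resting cells, stood at 29.7 and 31.7 FPKM, with a ratio of 1.07 (0.958 to 1.19).

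Junb was thus close to Jun with HBS, at 0.944 times its FPKM, and 2.01 times as high as Jun in HG+PC-NVs. Of the summed FPKM of the Jun genes, Junb made up 39.7% in HG+HBS against 56.4% in HG+PC-NVs, and Jun 42.1% and 28.1%. The share of Jund was 18.2% and 15.5%. The sum itself went from 162.6 to 203.9 FPKM, 1.25 times as high. The sum of the Fos genes went from 77.3 to 122.5 FPKM, 1.58 times as high, with Fosl2 at 75.6% and 71.4% of it, Fosl1 at 18.1% and 20.7%, and Fos at 4.83% and 7.07%. Jun mRNA exceeded Fos mRNA in both libraries, by 2.10 times in HG+HBS against 1.67 times in HG+PC-NVs in summed FPKM.

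**Figure D4:**
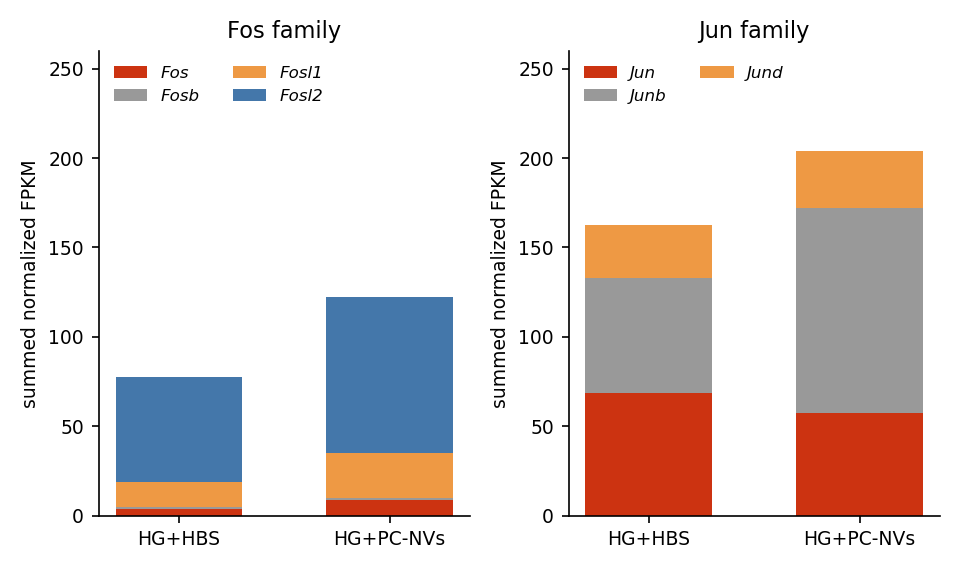
Summed normalized FPKM of the 4 Fos genes and the 3 Jun genes in each library, with bars starting at 0 and divided by gene. Fosl2 fills most of the Fos bar in both libraries, and Junb grows from 39.7% to 56.4% of the Jun bar.

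All 3 Jun genes are intronless, with 1 exon in the transcript used, so their reads cannot be told from unspliced RNA by splicing. Junb spans chromosome 8 from 84974484 to 84978718 on the reverse strand, and 351 bases of that span overlap Prdx2 on the opposite strand. The transcript used has 1809 bases, fewer than the span, and whether the overlap reaches it was not examined. Prdx2 had 333 and 395 FPKM, a log2 ratio of 0.24, smaller than that of Junb. Jun (chromosome 4, 95049034 to 95052222) and Jund (chromosome 8, 70698949 to 70700616) overlap the antisense genes Junos and Gm11175.

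Atf3 encodes a stress-induced partner of Jun that often represses its targets. It stood at 3.22 FPKM in HG+HBS against 4.71 FPKM in HG+PC-NVs, a ratio of 1.46 (1.10 to 1.94) from about 85 and 108 fragments. Its log2 ratio of 0.44 stayed within 1.5-fold, and its interval reached from little change to a size near that of Junb.

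Egr1, a zinc finger factor that the serum response factor is known to turn on, was the same in both libraries to within counting error. It stood at 24.7 FPKM in HG+HBS against 24.8 FPKM in HG+PC-NVs. The ratio was 1.00 with a narrow interval, 0.932 to 1.08, from about 1478 and 1288 fragments. Its log2 ratio of 0.01 changed sign with quantile normalization and with upper-quartile scaling, to -0.03 in both, so no direction can be given. It lies on chromosome 18 from 34859823 to 34864984.

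Myc, a regulator of growth and ribosome production that is not part of AP-1, also showed no difference as a gene. Its 2 rows summed to 15.2 FPKM in HG+HBS against 14.7 FPKM in HG+PC-NVs, a ratio of 0.972 (0.850 to 1.11). The rows went in opposite directions. The larger one stood at 12.2 and 10.2 FPKM, a log2 ratio of -0.24, and the smaller at 2.90 and 4.50 FPKM, a log2 ratio of 0.50. The smaller row made up 19.2% of Myc in HG+HBS against 30.6% in HG+PC-NVs. The files pair no transcript with either row, and reads shared by transcripts are divided by estimation, so which Myc mRNA each stands for cannot be said. Myc lies on chromosome 15 from 61985391 to 61990374.

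In the order of levels, the 3 most abundant genes with HBS were Jun, Junb and Fosl2, from 68.4 to 58.4 FPKM, and with PC-NVs they were Junb, Fosl2 and Jun, from 114.9 to 57.3 FPKM. Jund held place 4 and Fosb place 10 in both. From the highest to the lowest gene the levels spanned 61.0 times in HG+HBS against 112 times in HG+PC-NVs. With no replicates there is no spread to say which neighbours in that order differ. By counting error, 5 of the 10 ratios lay wholly above 1 (Fos, Fosl1, Fosl2, Junb and Atf3), 1 wholly below 1 (Jun), and 4 included 1 (Fosb, Jund, Egr1 and Myc).

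Short-lived mRNAs often carry AU-rich elements in the 3′UTR, repeats of ATTTA in DNA letters, to which proteins such as tristetraprolin (Zfp36) bind and start decay. All 10 genes had at least 1 ATTTA there, as did 63.9% of 20889 genes with a 3′UTR in GENCODE M21. The median density was 2.20 per kilobase for the 10 genes and 1.20 for all genes, and 9 of the 10 were above the latter. Fos had 4 matches in 815 bases (4.91 per kilobase, denser than 91.9% of genes), Myc 2 in 442 bases, Junb 2 in 485 bases and Fosb 1 in 2145 bases. The order of densities was not that of the ratios: Myc was denser than Junb and Fosl1 had 1.57 per kilobase. The longer AU-rich nonamer was in Fos, Fosl2 and Myc, and in 15.7% of all genes.

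To show the element, the 30-base stretch of the 3′UTR with the most ATTTA is given for Fos, Fosl2 and Jun, which hold 2 of them in it, with ATTTA in capitals. The stretches cover bases 632 to 661 of the 3′UTR of Fos, 3669 to 3698 of Fosl2 and 1028 to 1057 of Jun.
Fos: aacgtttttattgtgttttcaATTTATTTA
Fosl2: agaagaaattgacATTTAttttattATTTA
Jun: gtgatcATTTAtaatcataggaaagATTTA

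The other basic leucine zipper genes around AP-1 were described from a list of 28, of which 26 were at 1 FPKM or more in at least one library. Of these, 6 were higher in HG+PC-NVs past 1.5-fold and 0 lower, where 5.67% and 3.82% of all genes were, with a median log2 ratio of 0.07. Crem, whose short forms are inducible repressors of cyclic AMP signalling, stood at 22.5 and 52.5 FPKM, a log2 ratio of 1.19. Nfil3, a repressor known from cytokine and clock control, stood at 12.4 and 29.2 FPKM (1.18), and Batf, a Jun partner of lymphoid cells, at 0.388 and 2.04 FPKM (1.13). Batf reached 1 FPKM, and so was counted, only through HG+PC-NVs, the library where it was higher. Cebpb and Cebpd, factors of the acute-phase response, stood at 88.8 and 182 FPKM (1.03) and at 129 and 239 FPKM (0.89). Maff, a small Maf protein, stood at 9.54 and 15.7 FPKM (0.66). The ATF genes that pair with Jun stayed within 1.5-fold, with log2 ratios of 0.07 for Atf2 and -0.18 for Atf7.

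Of 34 other immediate-early genes tested, 6 were higher and 2 lower past 1.5-fold, against the same shares of all genes, with a median log2 ratio of 0.35. Ier3, a survival gene of the NF-kB and stress response, stood at 51.5 FPKM in HG+HBS against 274 FPKM in HG+PC-NVs, for a log2 ratio of 2.39. The orphan nuclear receptor genes Nr4a1 (15.8 and 49.5 FPKM, log2 ratio 1.59) and Nr4a2 (24.8 and 68.4 FPKM, 1.43) were higher, as were Gem (42.0 and 109 FPKM, 1.36), Btg1 (23.4 and 43.2 FPKM, 0.85) and Nr4a3 (0.850 and 2.12 FPKM, 0.75). The 2 lower genes were Ctgf, a target of the YAP and SRF pathways (13.8 and 4.75 FPKM, -1.37), and Gadd45a, a stress and p53 target (30.5 and 17.0 FPKM, -0.81). Egr2 was below 1 FPKM in both libraries, and Egr3 stood at 3.52 and 2.75 FPKM. Neither Egr1 nor Egr3 was past 1.5-fold, where Nr4a1 and Nr4a2 were. Nr4a3 was as well, but it reached 1 FPKM, and so was counted, only through HG+PC-NVs, the library where it was higher.

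Genes that act on these factors were counted against the same background, 5.67% of all genes higher and 3.82% lower past 1.5-fold. Of 21 upstream kinase and serum response genes tested, 2 were higher past 1.5-fold, Map2k6 (2.19 and 4.36 FPKM, log2 ratio 0.75) and Map2k1 (50.3 and 76.8 FPKM, 0.60), and 0 lower, with a median of 0.08. The kinase genes Mapk3, Mapk8 and Mapk9 had log2 ratios from -0.13 to 0.08, and Srf had -0.01. Those within 1.5-fold ran from -0.33 (Mkl1) to 0.57 (Rps6ka3), with Map3k8 at 0.53 and Mapk14 at 0.36. These are mRNA levels, and kinase activity was not measured in these libraries. Of 11 genes of mRNA and protein turnover and co-repression, 2 were higher past 1.5-fold and 0 lower, with a median of 0.10. The 2 were Nab1, a co-repressor of Egr proteins (13.1 and 32.0 FPKM, 1.23), and Zfp36l1, an mRNA decay factor (55.6 and 85.7 FPKM, 0.61). Nab2, the other Egr co-repressor, stood at 96.8 and 72.3 FPKM, and Zfp36 at 22.3 and 26.9 FPKM.

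**Figure D5:**
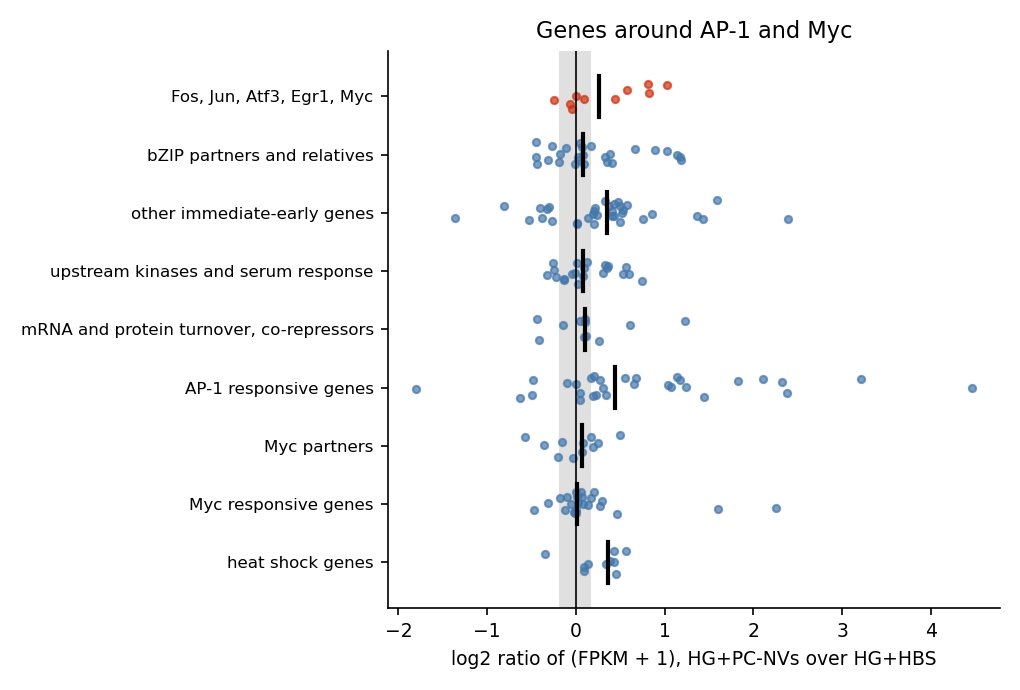
Log2 ratio of (FPKM + 1), HG+PC-NVs over HG+HBS, of the genes at 1 FPKM or more in at least one library, 1 point per gene, for the 10 genes (top) and 8 lists; black ticks are medians and the grey band is the range between the quartiles of all genes tested. The median of the AP-1 responsive genes is 0.44 and that of the Myc responsive genes 0.01.

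Of 30 genes known to respond to AP-1, all tested, 14 were higher and 2 lower past 1.5-fold, where 5.67% and 3.82% of all genes were, with a median log2 ratio of 0.44. The list was chosen with earlier results of these data known, so its counts are a description and not a test of enrichment. Many of its genes, such as Il6 and Lif, also respond to NF-kB or other factors, so the list does not single out AP-1. The cytokine genes Il6 (1.09 and 45.1 FPKM, 4.46), Lif (11.5 and 115 FPKM, 3.21) and Il11 (3.33 and 21.4 FPKM, 2.37) and the growth factor gene Ereg (34.1 and 174 FPKM, 2.32) led it. The matrix protease genes Mmp13, at 60.1 and 263 FPKM, and Mmp9, at 3.10 and 13.5 FPKM, had log2 ratios of 2.11 and 1.83. The lower genes were Krt18 (9.61 and 2.05 FPKM, -1.80) and the cyclin gene Ccnd1 (143 and 91.6 FPKM, -0.63). Plau, Plaur and Hbegf, also widely used as AP-1 targets, had log2 ratios of -0.10, 0.27 and 0.04. Dcn (1.04), 1 of the 14 higher, is also among the fibroblast markers above, so its value was counted in both lists.

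Genes of the Myc network were counted in the same way. Of 11 partner genes tested, 0 passed 1.5-fold in either direction, and Max stood at 44.2 and 46.8 FPKM. Of 24 Myc responsive genes, 2 were higher and 0 lower past 1.5-fold, where 5.67% and 3.82% of all genes were, with a median of 0.01. The 2 were Odc1, the first enzyme of polyamine synthesis (51.3 and 249 FPKM, 2.26), and Ldha, lactate dehydrogenase A (439 and 1330 FPKM, 1.60), which hypoxia signalling is also known to induce. The others ran from -0.47 (Ccnd2) to 0.46 (Tfrc), with the nucleolar genes Nop16 and Ppan at -0.31 and -0.13 and Fbl and Nop56 at 0.27 and 0.13.

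Heat shock genes and housekeeping genes were read beside these values, as signs of handling stress and of scaling. Past 1.5-fold, 5.67% of all genes tested were higher and 3.82% lower. Of 10 heat shock genes, 0 passed 1.5-fold and 9 were higher, with a median log2 ratio of 0.36. Hspa1a and Hspa1b, the stress-inducible forms, each had 0.43, near the value of Atf3. The housekeeping list had a median of 0.14, with 2 of 12 higher past 1.5-fold. These were B2m and Pgk1, at 0.84 and 0.85, as large as Junb and Fosl1, while Actb was at 0.00, Gapdh at 0.41 and Tbp at -0.31. Whether handling had a part in the higher values of Fos, Fosl1, Fosl2 and Junb was not tested. All 3 scalings tried kept Fos, Fosl1 and Junb past 1.5-fold, and left Fosl2 short of it.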

How the data were processed

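MCECs were sequenced by the authors as 1 poly(A)-selected, stranded library per condition. The authors trimmed the reads, mapped them with TopHat (mm10 per the labels), obtained read counts with BEDTools and FPKM with Cufflinks, and normalized in R with edgeR, by what the methods call quantile normalization (ranked values still differed by over 0.05 in 2318 rows). Versions, annotation and the strand setting are not given in the sources used here. The deposited values are log2(normalized FPKM + 1), a reading taken from the values, which start at 0 and reach 13.99.

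Each value was converted to FPKM, and rows of a symbol were summed. No further scaling was applied. Genes at 1 FPKM or more in at least one library (12109) were tested for size only, with a pseudocount of 1 and limits of 1.5-fold and 2-fold. No p-value was computed. The worth of 1 fragment was the most frequent low value of FPKM times length (kb) over 2189 single-transcript genes longer than 1500 nt. Of values worth 0.5 to 3.5 fragments, 85.9% (HG+HBS) or 83.8% (HG+PC-NVs) lay within 0.15 of a whole number.

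The 10 genes, the lists and the motifs were chosen with earlier results of these data known. All 10 genes were named, and of each list up to 6 higher and 6 lower past 1.5-fold by size, with other genes named for their role. In all, 6 listed names, mostly newer synonyms, were not matched. The calculations were tested on simulated data. Coordinates and lengths are from GENCODE M21 (GRCm38). Calculations ran in Python 3.11.15 with pandas 2.3.3, numpy 2.4.6, matplotlib 3.10.9 and scipy 1.17.1.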

Additional observations from a re-analysis of the deposited data

How the results depend on the processing

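The alternatives were quantile normalization, upper-quartile scaling, median centring, a pseudocount of 0.1, the highest row of each symbol in place of the sum, no filter on low values, and 1 FPKM in both libraries. In all 7 of them Fos, Fosl1 and Junb were the members past 1.5-fold and 0 members were lower. The filter settings could not change this, since all 10 genes were at 1 FPKM or more in both libraries. Taking the highest row could change only Myc, the only one of them with more than 1 row. Past 2-fold the count of higher members was 1 (Fos) except with upper-quartile scaling, where it was 0 because the log2 ratio of Fos came to 1.00, just under the limit. The median log2 ratio of the 10 genes ran from 0.23 to 0.32. Of 50 alternative ratios of single genes, including the highest-row ratios of genes with 1 row, which could not move, 48 stayed within counting error. The other 2 were Fosl2 with quantile normalization (0.51) and Myc with its highest row only (-0.24). Egr1 changed sign in 2 of them. With a pseudocount of 0.1, 798 of all genes were lower past 1.5-fold, against 462 with a pseudocount of 1, and 253 against 105 past 2-fold. The scalings moved the median of all genes by at most 0.03 on the log2 scale. No paired analysis was possible because each condition has a single library, which also leaves no replicate to drop. Depth limits Fosb, Fos and Atf3, with 45 to 211 fragments each.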

Other observations

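Crem, the basic leucine zipper gene with the largest log2 ratio of (FPKM + 1) in its list (in FPKM alone, Batf and Nfil3 exceeded it), is split over 16 rows, of which 4 were at 1 FPKM or more in at least one library. Of those 4, 3 were higher in HG+PC-NVs past 1.5-fold and 0 lower. The main pair of rows stood at 10.7 and 8.27 FPKM in HG+HBS and at 27.7 and 18.7 FPKM in HG+PC-NVs, log2 ratios of 1.29 and 1.09, and together held most of the gene in both libraries. Crem has an internal promoter that makes short inducible repressors. The files do not pair the rows with transcripts, so the rows could not be assigned to the short or long forms.

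Both rows of Nr4a2 were higher in HG+PC-NVs, at 18.2 and 53.1 FPKM and at 6.62 and 15.3 FPKM. Nr4a1, Nr4a2, Crem and Fos are all known as cyclic AMP and CREB responsive genes, as is Egr1, which did not differ here. Sik1 and Per1, further genes of that kind, stood at 1.67 and 2.84 FPKM (0.52) and at 7.13 and 7.18 FPKM (0.01). These genes were put side by side after their values were seen, and no cause was tested.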
